A study of Mus musculus with 4 samples.

Results

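The ileum of mice with the G181R form of DAO was compared with that of wild-type mice on 2 of the 4 arrays of the series, 1 array for each genotype. All mice were 9 weeks old and on the C57BL/6J background, and both groups were Tcrbd-/-, that is, without the genes of the T cell receptor's beta and delta chains. They differed in genotype, DAOwt/wt or DAOG181R/G181R. Epithelium was scraped off mechanically, and the RNA of 5 mice was mixed for each array, so the mice behind a value cannot be separated. The other 2 arrays hold the same pair of genotypes in jejunum and are set beside the ileum where they show a difference. Sex, litter and cage are not given in the sources used here. With 1 array in a group there is no test and no error between mice, and every value below describes these 2 pools.

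D-amino acid oxidase (DAO) is a peroxisomal flavoenzyme that turns D-amino acids, many of which come from bacterial cell walls, into keto acids, ammonia and hydrogen peroxide. The G181R substitution is known to leave little enzyme activity. The ileum, the last stretch of the small intestine, takes back bile acids and vitamin B12, holds many Paneth cells and lymphoid follicles, and meets far more bacteria than the jejunum does. Its epithelium answers bacteria with cytokine-driven programmes. Interleukin 22 acts through STAT3 on surface glycans and antimicrobial lectins, and interferon gamma acts on antigen presentation and on GTPases that attack invaders inside the cell. The comparison asks which genes differ in the ileum when most of the enzyme's activity is gone.

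A value is the processed signal of the gene's brightest probe, in arbitrary units, always given in the order wild-type, G181R. A difference is the log2 signal of G181R minus that of wild-type after each array's 75th percentile was subtracted, so 1 stands for 2-fold higher. A gene counts as measured when the scanner software set its probe well above background on each ileum array, as it did for 14237 named genes. In what follows, "rose" and "fell" are used only past 2-fold. That threshold was passed upward by 292 named genes (2.05%) and downward by 539 (3.79%), 5.84% in all. The median difference was 0.01, with the 5th and 95th percentiles at -0.87 and 0.67, and 7321 genes (51.4%) were above 0. Past 4-fold there were 56 higher (0.393%) and 68 lower genes (0.478%), 0.871% in all. Repeated spots scattered with an SD of 0.0430 in the difference (median of 296 probes), an error of the hybridisation and not of mice or labelling. Separate probes of a gene gave a larger SD, 0.126 as the median of 6667 genes. Of 237 called genes with at least 2 measured probes, 115 (48.5%) were past 2-fold in the same direction at every probe. Dim genes were called more often: in the dimmest quintile of genes 7.44% were lower and 2.63% higher, in the brightest 1.09% and 1.33%. Acot2 (-1.001) and Ppargc1a (-1.002) lay just inside the threshold, and Gcnt3 (0.9994) and Pla2g2a (0.9989) just outside it.

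**Figure D1:**
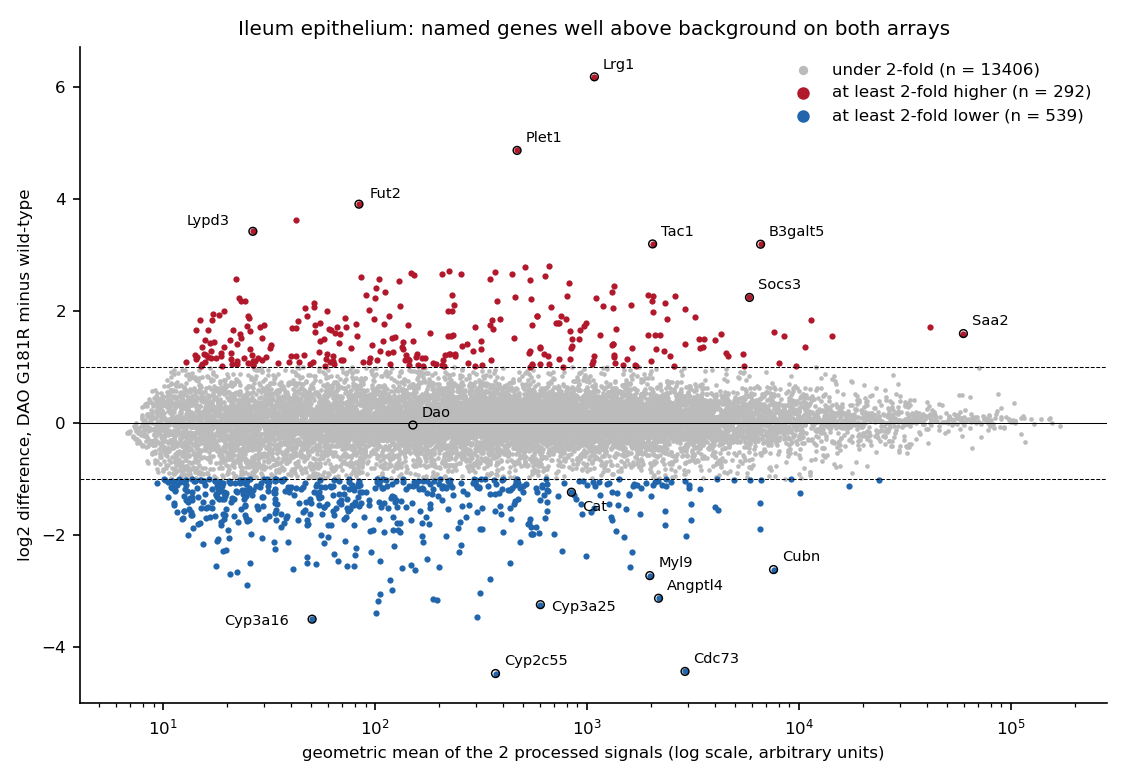
Each point is 1 of 14237 named genes measured in ileum, with the geometric mean of its 2 signals on a log axis and the log2 difference, G181R minus wild-type, on the vertical axis; dashed lines mark 2-fold. The 292 higher and 539 lower genes lie on both sides of a dense band, lower calls gather among dim genes, and Dao lies close to 0.

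The tissue label held on both arrays. Fabp6, the ileal bile acid binding protein, read 179372 and 162699 in ileum against 11.2 and 17.0 in jejunum, and lactase (Lct), an enzyme of the upper small intestine, read 90.6 and 134 against 69632 and 51730. Genes that all epithelial cells share were nearly level: of 18 pan-epithelial genes 0 passed 2-fold, and their summed level was 2655 in wild-type and 2632 in G181R (signals divided by the 75th percentile). Tissue from beneath the epithelium was not level. The summed level of 28 smooth muscle markers was 179 in wild-type and 89.99 in G181R, and that of 15 adipocyte markers was 62.0 and 31.3. Markers of B cells went the other way, with 35.6 and 49.3 over 20 genes, and plasma cell and IgA genes read 569 and 721. That last list holds the nitric oxide synthase Nos2, also counted below with interleukin 22 genes, whose processed signals were 4457 and 13034. For 30 fibroblast genes the sums were 37.4 and 28.3. In jejunum the smooth muscle sums were 162.8 and 163.0 and the adipocyte sums 87.3 and 76.9. The ileum sums differed between the 2 pools and are named again beside the groups they touch. In pooled, scraped tissue, genotype, the tissue that the scraping took, the number of cells of a type and the RNA per cell cannot be told apart.

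Dao itself differed little. Its brightest probe, at chr5:114475410-114475469 (mm9, the build of all probe positions), read 157 and 145, a difference of -0.04, and a dimmer probe read 9.39 and 14.2, a difference of 0.67. The G181R change alters 1 amino acid, so neither probe checks the genotype label. Among 12 measured genes that handle D-amino acids or serve the enzyme, 1 rose and 1 fell, and the median was 0.02. Slc6a14, a broad transporter of the apical membrane that also carries D-amino acids, rose from 209.7 to 719.9 (1.86). Catalase (Cat), which breaks down hydrogen peroxide in peroxisomes, fell from 1331 to 534 (-1.24, and -0.46 in jejunum). The neutral amino acid exchanger Slc1a5 (0.08), the brush border carrier Slc6a19 (-0.45) and asparaginase (Aspg, 0.31) stayed inside 2-fold.

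Within 10 Mb of Dao on either side lie 212 measured genes, of which 6 rose and 9 fell (7.08%, against 5.84% of all genes), with a median of 0.06. Gbp4 (2.01), Rfc5 (1.54), Oas2 (1.25), Spp1 (1.22), Gbp6 (1.04) and Noc4l (1.003) were the higher ones. Sparcl1 (-1.98), Wscd2 (-1.72), Hspb8 (-1.56) and Tesc (-1.41) led the lower ones. Rfc5, a clamp loader subunit of DNA replication, read 8621 and 23754, and its jejunum difference was 1.96. In the mean of all probes of a gene, dim ones included, Rfc5 stood at 0.73, Oas2 at 0.54 and Noc4l at 0.996. With normexp background correction, which draws dim signals together, Spp1, Gbp6, Noc4l, Wscd2, Hspb8 and Tesc were under 2-fold. The genes of this window are named for lying in it, after their values were seen.

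Other sources and sinks of hydrogen peroxide were followed as well. The dual oxidase Duox2, which releases hydrogen peroxide at the apical surface, rose from 542 to 1290 (1.33), and its maturation factors Duoxa2 (1818 and 4582, 1.41) and Duoxa1 (27.5 and 55.5, 1.09) rose with it. These 3 genes are neighbours on chromosome 2, and in jejunum Duox2 differed by 2.33 and Duoxa2 by 2.54. Monoamine oxidase B (Maob) fell from 809 to 198 (-1.95) and the peroxisomal hydroxyacid oxidase Hao2 from 153 to 41.0 (-1.82). Over the 17 measured peroxide-producing oxidases 3 rose and 2 fell (median 0.10). Of 26 measured genes for peroxide removal and thiol defence 1 rose, the haem oxygenase Hmox1 (64.6 and 137, 1.16), and 1 fell, Cat. The epithelial glutathione peroxidase Gpx2 read 52017 and 96615 (0.97). The brightest probe of the cystine carrier Slc7a11 was above background in G181R alone, at least 2.20-fold higher, but its 4 probes had a mean difference of -0.11. Hmox1 stood at 0.49 and Duoxa1 at 0.72 in the mean of their probes. Among 33 measured peroxisome genes 0 rose and 3 fell, Hao2, Cat and the bifunctional enzyme Ehhadh (-1.01). Hmox1, Duoxa1 and Ehhadh were under 2-fold with normexp.

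The 20 genes that rose most were led by Lrg1, Plet1 and Fut2. Lrg1, a leucine-rich glycoprotein of the acute phase, read 131 and 8945 at chr17:56259257-56259316, a 72.1-fold difference (6.17). Plet1, a surface protein of epithelial progenitors, read 89.1 and 2450 at chr9:50313107-50313166 (4.86). Fut2, the fucosyltransferase that puts the terminal fucose on gut surface glycans, read 22.3 and 315 at chr7:52905946-52906005 (3.90). None of the 3 wild-type signals was at background, where signals down to 7.20 still passed. Tac1, the precursor of substance P, read 692 and 5990 (3.19, and 3.30 at its other probe). B3galt5, which builds type 1 glycan chains, read 2241 and 19324 (3.19). Trim10 (12.4 and 145) and Lypd3, a surface protein of the uPAR family (8.32 and 84.2), were dim in wild-type, and their differences were 3.63 and 3.42.

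The others of the 20 described here lay between 2.57 and 2.79. Ly6d, Socs1 and Iigp1 are described with their families. The GTPase Rhoj read 89.4 and 556, C2cd4b 148 and 908, the mitochondrial adenylate kinase Ak4 59.99 and 362 and the cadherin Celsr3 104 and 621. Tyrosine aminotransferase (Tat) read 263 and 1534 and the sulfotransferase Chst4 63.1 and 372. Rgs4, a brake on G protein signalling, read 9.25 and 52.0, Shisal2b 35.6 and 204 and the alarmin Il33 43.8 and 246. Ak4 stood at 1.54 and Celsr3 at 1.30 in the mean of their probes, and Rgs4 at 0.76 with normexp.

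The 20 genes that fell most were led by drug-metabolising enzymes and muscle proteins. Cyp2c55, a cytochrome P450, read 1790 and 76.3 at chr19:39116674-39116733 (-4.48, and -4.38 at its other probe). Cdc73, a subunit of an RNA polymerase II elongation complex, read 13846 and 606 (-4.44), but its other probes differed by -0.02, so that value belongs to 1 probe. The 6 Cyp3a genes, Synm, Synpo2, Tpm2 and Myl9 among the 20 are described with their groups. Glucose-6-phosphatase (G6pc) read 574 and 61.4 (-3.15) and the lipoprotein lipase inhibitor Angptl4 6606 and 714 (-3.13). The pyruvate dehydrogenase kinase Pdk4 read 395 and 60.5 (-2.63). The beta-defensin Defb37 read 319 and 33.2 (-3.19). The matrix protein Vwa1 read 310.2 and 35.4 (-3.05, and -0.81 in the mean of its probes). Plscr4 (69.5 and 8.84), the complement inhibitor Cd59a (54.1 and 7.86) and Stmn3 (57.5 and 8.65) were dim in G181R and stood at -0.78, -0.73 and -0.62 with normexp.

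**Figure D2:**
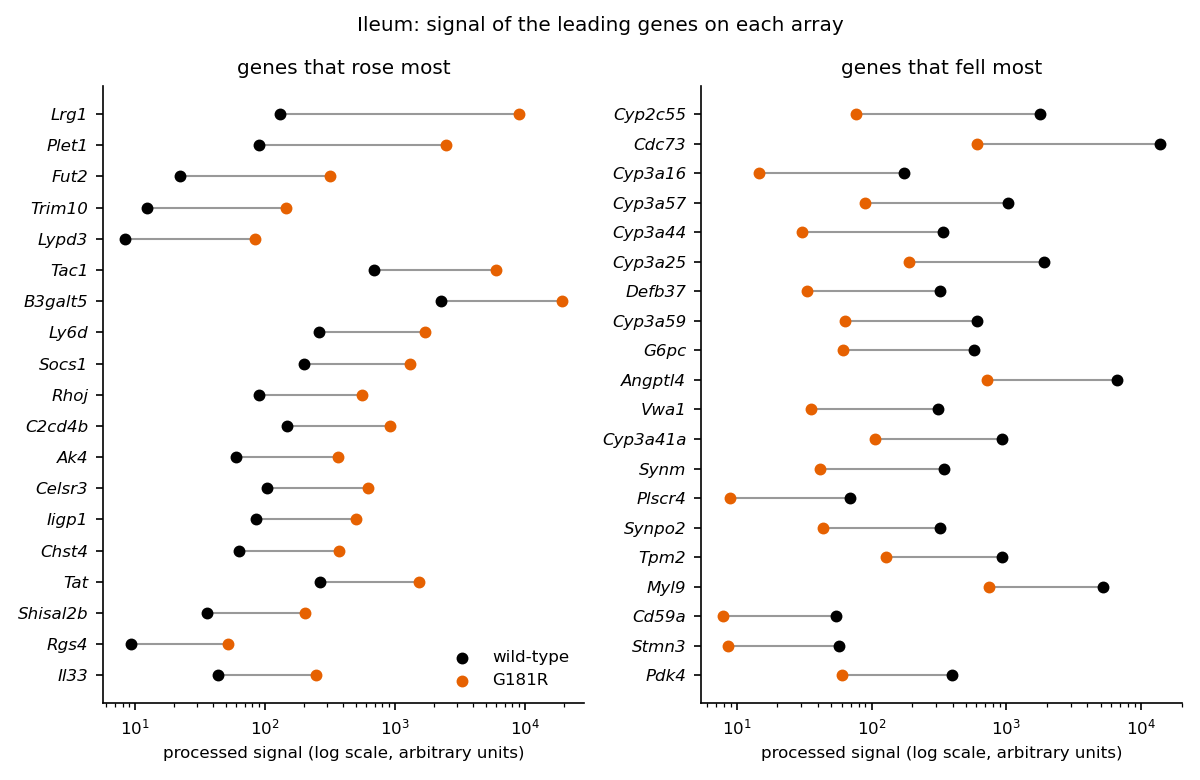
Processed signal on a log axis of genes among the 20 that rose most and of the 20 that fell most in ileum, black for wild-type and orange for G181R, 1 array each. Lrg1 spans 131 to 8945 and Cyp2c55 1790 to 76.3, while Trim10, Lypd3 and Rgs4 start near the lowest signals that count as above background.

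Genes seen on 1 ileum array only give a bound in place of a difference: the bright signal is set against the dim array's own signal or the lowest one well above background there, whichever is higher. Of 438 named genes seen in G181R alone 64 (14.6%) were at least 2-fold higher, and of 386 seen in wild-type alone 137 (35.5%) were at least 2-fold lower. These counts go by the brightest probe. Another probe was above background on the dim array for 2 of the 64 and 4 of the 137, Ccl4 and Cntnap4 among them, and those genes have no bound. The largest bound upward was that of Cxcl5, a neutrophil-attracting chemokine, with 1.77 and 182 and at least 26.6-fold. The chemokine Cxcl1 (7.24 and 119, at least 17.3-fold) and the calprotectin subunit S100a9 (1.67 and 96.8, at least 14.2-fold) followed. Then came Nlrp10 (at least 9.58-fold), Ccdc85a (6.94), Ntn5 (6.47), Potegl (6.32), hepcidin (Hamp, 5.77), the potassium channel Kcnk2 (5.50) and interleukin 22 (Il22, 7.27 and 36.9, at least 5.36-fold). Downward, the beta-defensins Defb40 (123 and 4.06, at least 19.1-fold lower) and Defb39 (57.1 and 4.48, at least 8.86-fold lower) stood with Olfr1242 (13.9), the muscle calcium store protein Casq2 (9.50), Cep85l (7.67) and Map3k8 (7.15). The epithelial interferon Ifne (6.92), Prl7c1 (6.75) and Tex22 (6.66) followed. Map3k8 stood at -0.97 in the mean of its probes.

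Acute-phase genes stood higher. Of 11 measured in ileum, 6 rose and 0 fell, with a median of 1.46. In jejunum 4 of 10 measured rose and 0 fell, with a median of 0.07. Beside Lrg1, the serum amyloid genes Saa1 (23396 and 72690, 1.71), Saa2 (35272 and 100719, 1.59) and Saa3 (119 and 447, 1.99), which bind retinol, rose together and lie side by side on chromosome 7. They rose in jejunum too, Saa1 by 2.09, Saa2 by 3.90 and Saa3 by 1.02 on the log2 scale. The siderophore-binding lipocalin Lcn2 (34.9 and 93.7, 1.502) and the protease inhibitor Serpina3g (195 and 508, 1.46) rose too. Haptoglobin (Hp) did not, with 204 and 113 (-0.77). Fibrinogen beta (Fgb) was seen in G181R alone, at least 2.89-fold higher, and orosomucoid 1 (Orm1) in wild-type alone, at least 2.89-fold lower. With normexp, Lcn2 stood at 0.80 and the list median at 0.80, and with no background filter the median was 0.34.

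Genes of the epithelium that answer interleukin 22 or STAT3 also leaned upward, with 8 of 22 higher, 1 lower and a median of 0.64. The median was 0.42 with normexp and 0.38 in the mean of all probes. Plet1 and Fut2 led. The antibacterial goblet cell protein Retnlb rose from 908 to 4162 (2.27) and Socs3, the feedback brake on STAT3, from 2761 to 12324 (2.24). Inducible nitric oxide synthase (Nos2) read 4457 and 13034 (1.63), the NF-kappaB adaptor Tifa 3640 and 8091 (1.23) and Il18 3965 and 7551 (1.01). Among the Reg family of antimicrobial lectins, 2 of 6 measured rose and 1 fell. Reg3a (6212 and 21013, 1.84) and Reg3d (106 and 307, 1.61) rose, Reg4 fell from 1134 to 270.3 (-1.99), and the abundant Reg3b (0.15) and Reg3g (0.13) were nearly level. In the interleukin 22 and STAT3 list only Ido1, which degrades tryptophan, fell (1870 and 830.0, -1.09). Clca4b, among the brightest, read 14372 and 16605 (0.29). Il18 stood at 0.99 with normexp and at 0.98 with quantile normalisation.

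The chemokines and neutrophil products that rose read at most 149 in wild-type, and several others were seen in G181R alone. Of 20 measured chemokines 5 rose and 0 fell, and 5 more had bounds of at least 2-fold upward at their brightest probe. Cxcl9 (47.5 and 211, 2.23) and Cxcl10 (113 and 426, 1.99), which draw lymphocytes, led the measured ones. The monocyte chemokines Ccl8 (9.62 and 34.7, 1.93) and Ccl2 (11.2 and 23.9, 1.17) and the B cell chemokine Cxcl13 (149 and 288, 1.03) rose from low signals and were under 1 with normexp. Cxcl3 and Ccl19 were at least 2.84-fold and 2.72-fold higher. Ccl4, the fifth, was measured on both arrays by another probe, which differed by 0.64. Ccl25, the homing chemokine of small intestinal epithelium, read 36355 and 24108 (-0.51). Of 14 measured neutrophil genes 2 rose, lactoferrin (Ltf, 38.9 and 134, 1.86) and Ly6g (53.4 and 183, 1.86). S100a8 was at least 3.58-fold higher beside S100a9, and the granule enzyme Elane (-0.03) and the receptor Trem1 (0.24) stayed inside 2-fold.

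Interferon-inducible GTPases stood higher: 12 of 21 measured rose and 0 fell, with a median of 1.05. These proteins coat and rupture vacuoles that hold microbes. Among the immunity-related GTPases, Iigp1 read 84.8 and 505 (2.65), Tgtp2 148 and 827 (2.56), Igtp 376 and 1699 (2.25) and Irgm2 409 and 1326 (1.77). Irgm1, which keeps the others off the cell's own membranes, read 472 and 926 (1.05). Among the guanylate-binding proteins, Gbp4 read 48.1 and 183 (2.01), Gbp2 165 and 404 (1.37), Gbp7 27.1 and 58.6 (1.19) and Gbp6 35.2 and 68.6 (1.04). Mx2 (93.7 and 245, 1.46), Gm4951 (30.2 and 103, 1.85) and Gm12250 (50.9 and 134, 1.47) completed the 12. The large GTPase Gvin1 (2199 and 1240, -0.75) and Ifi47 (1289 and 1962, 0.68) did not pass 2-fold. In jejunum the list's median was -0.35, with Igtp at -0.56, Irgm2 at -0.61, Tgtp2 at -0.25 and Gbp6 at -1.21; the difference between tissues was not tested. With normexp the ileum median was 0.65, and Gm4951, Gm12250, Gbp6, Gbp7 and Irgm1 were under 1. The closest pair of probes in the immunity-related group shared 23 of 59 aligned bases and in the guanylate-binding group 27 of 58, so the members were read by unlike probes. Whether a probe also reads the RNA of another member was not tested.

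Promoters are shown because 12 of the 21 measured GTPases rose. The letters searched, on both strands, were GAAANNGAA, the core of the interferon-stimulated response element, and TTCNNNGAA, the gamma-activated site, in RefSeq windows of 250 bases before to 50 after the start (GRCm38.p6). Capitals mark the matches on either strand, which can overlap. The 8 genes were picked from the lists after their matches were seen.
Igtp, chr11:58199496-58199545, plus strand: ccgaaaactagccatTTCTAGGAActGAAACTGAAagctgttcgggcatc
Irgm2, chr11:58214887-58214936, plus strand: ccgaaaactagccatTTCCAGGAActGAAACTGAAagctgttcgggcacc
Irgm1, chr11:48871421-48871465, minus strand: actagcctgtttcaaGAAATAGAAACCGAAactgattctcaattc
Gbp2, chr3:142620590-142620628, plus strand: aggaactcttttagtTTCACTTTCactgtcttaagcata
Gbp7, chr3:142530215-142530307, plus strand: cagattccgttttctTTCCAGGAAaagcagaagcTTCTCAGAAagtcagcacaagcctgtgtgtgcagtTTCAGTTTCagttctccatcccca
Socs1, chr16:10785590-10785634, minus strand: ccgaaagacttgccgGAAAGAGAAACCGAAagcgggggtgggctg
Cxcl9, chr5:92328231-92328269, minus strand: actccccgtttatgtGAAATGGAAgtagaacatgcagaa
Cxcl10, chr5:92349079-92349117, minus strand: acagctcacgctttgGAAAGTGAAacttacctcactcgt

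The Igtp and Irgm2 windows were identical at 48 of 50 bases and carry both motifs 2 bases apart. In Irgm1 and Socs1 a pair of response element cores overlaps. Of the GTPase list, 10 genes matched the promoter table with 11 promoters; 9 of the 11 (81.8%) held the response element core and 5 (45.5%) the gamma-activated site. Among 14401 promoters of measured named genes the shares were 7.40% and 7.06%. Of 309 promoters of genes that rose, 14.2% held the core and 12.9% the gamma-activated site, and of 545 promoters of genes that fell, 6.97% and 4.77%. In the type I interferon list 16 of 22 promoters (72.7%) held the core. Members of the GTPase and type I lists were chosen as interferon-inducible genes, so a high share could be foreseen whatever these arrays read. The GTPase list also holds members that did not pass 2-fold. The letters describe the windows and do not show binding.

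The wider interferon gamma pathway had 7 of 24 members higher and 1 lower (median 0.66). Socs1, the brake on interferon gamma signalling, rose from 198 to 1296 (2.79, and 0.08 in jejunum). Nlrc5, the switch for MHC class I genes, read 108 and 494 (2.28), the ubiquitin-like modifier Ubd 684 and 1922 (1.57), the checkpoint ligand Cd274 94.1 and 206 (1.21) and the peptide transporter Tap1 732 and 1590 (1.20). The transcription factor Irf1 read 9440 and 10875 (0.28) and the receptor chain Ifngr1 7501 and 7742 (0.12). The brightest class I presentation genes stayed inside 2-fold: H2-K1 read 43866 and 40423 (-0.04), B2m 32355 and 29137 (-0.07) and H2-Q4 20374 and 19340 (0.00). Of 23 class I presentation genes 2 rose, Nlrc5 and Tap1 (median 0.13). Class II presentation had a median of 0.64 over 12 genes with 10 above 0, but only H2-Eb2 rose (24.8 and 49.2, 1.07); H2-Ab1 read 22858 and 28679 (0.40) and Cd74 7288 and 11094 (0.68). With normexp Cd274 stood at 0.87 and H2-Eb2 at 0.43.

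Type I interferon genes, which restrict viruses, were higher in ileum by a median of 0.50, with 6 of 26 risen, and stood at -0.46 in jejunum. Ifit2 (14.9 and 44.2, 1.65), Ifi44 (38.2 and 110.3, 1.61), Zbp1 (521 and 1392, 1.497), Oas2 (354 and 801, 1.25), Ifitm3 (959 and 1913, 1.07) and the tether Bst2 (429 and 838, 1.04) were the 6. Among the brightest members, Irf7 read 10871 and 9374 (-0.14) and Oas1b 10155 and 14371 (0.58). The cytidylate kinase Cmpk2 was lowest (494 and 249.8, -0.91). Oas2 stood at 0.54 in the mean of its probes, and Ifit2 (0.60), Ifi44 (0.86) and Bst2 (0.96) were under 1 with normexp. Of 19 measured interleukins and TNF family genes Il33 and Il18 rose, and Il22 had the bound given above; the lymphocyte survival factor Il15 read 1380 and 722 (-0.86). Among the brakes and STATs, Socs1 and Socs3 were joined by the NF-kappaB regulator Nfkbiz (509.7 and 1067, 1.14) and the ribonuclease Zc3h12a (153 and 292, 1.01), which stood at 0.46 and 0.86 in the mean of their probes. Of 31 microbial sensors 0 rose and the flagellin receptor Tlr5 fell (20.8 and 6.53, -1.59); the list's median was 0.35 (0.13 in the mean of all probes), with Pycard at 0.20 and Tlr2 at 0.98. Tlr5 stood at -0.24 with normexp and -0.82 in the mean of its probes.

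Complement genes moved singly. The soluble regulator Cfi (429 and 1462, 1.85), which helps to switch off C3b, rose, and Cfd, the protease that starts the alternative pathway and is made in quantity by fat cells, fell (3105 and 1422, -1.05) together with Cd59a. C3 (2129 and 2150, 0.09) and Cfb (4534 and 3790, -0.18) were level, and the median of the 20 genes was 0.09. Cfi differed by 1.11 in jejunum.

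Members of the Ly6 family of lipid-anchored surface proteins rose in 2 neighbouring blocks of chromosome 15. Of 20 measured members 7 rose and 0 fell (median 0.48, and 0.16 with normexp, where Ly6k stood at 0.32). In the first block, Ly6d read 258 and 1694 at chr15:74592551-74592610 (2.79) and Ly6k 10.4 and 23.2 (1.23), and the adjoining Gml (2.33) and Gml2 (2.50) rose with them. In the second block, the stem cell antigen Ly6a read 589 and 3024 at chr15:74825553-74825612 (2.44), Ly6c1 977 and 4193 (2.18), Ly6c2 958 and 4340 (2.26) and Ly6g 53.4 and 183 (1.86). The Ly6c1 and Ly6c2 probes were identical at 57 of 60 bases and may read both RNAs, and the other Ly6c1 probe differed by 0.30. Ly6f was seen in G181R alone, at least 2.92-fold higher. Lypd8, which keeps flagellated bacteria away from the epithelium, read 77358 and 80860 (0.14). In jejunum the list's median was -0.10, with Ly6d at -0.21 and Ly6a at -0.18. The first block was not level there as a whole: Gml stood at 2.15 and Gml2 at 2.10 in jejunum. Ly6k stood at 1.96 but did not count as measured in that tissue. Of 27 genes of the wound edge and of fetal-like epithelium only Ly6a and Il33 rose (median 0.14); Anxa2 (0.00) and Emp1 (0.14) were level.

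Enzymes of surface glycans had 6 of 34 members higher and 1 lower. Fut2 and B3galt5 were given above. Chst4, which sulfates mucin-type glycans, read 63.1 and 372 (2.64), the chain-extending enzymes B3gnt7 65.3 and 262 (2.08) and B3gnt5 72.8 and 197 (1.51), and the sialyltransferase St6galnac6 206 and 487 (1.32, but 0.54 in the mean of its probes). The branching enzyme Gcnt3 read 1867 and 3536 (0.999) and the sialyltransferase St3gal6 fell (85.9 and 34.5, -1.24). Of 22 goblet cell genes Retnlb rose, and so did the membrane mucin Muc4 (1516 and 3474, 1.27, but 0.91 in the mean of its probes); the gel-forming Muc2 read 88487 and 78247 (-0.10) and Zg16 134819 and 100963 (-0.34). Of 20 Paneth cell products 0 passed 2-fold, with the alpha-defensin Defa23 at 0.07, Defa24 at 0.08 and the phospholipase Pla2g2a at 0.999. Among proteases and their inhibitors, the serine protease Prss27 rose (217 and 971, 2.24), as did Wfdc18 (41.6 and 128, 1.70). Prss23 (4131 and 1310, -1.58), Serpina1b (-1.40), Wfdc2 (-1.10), Timp2 (-1.04) and Timp3 (-1.01) fell. Timp2 stood at -0.86 and Timp3 at -0.79 in the mean of their probes, and both were under 2-fold with normexp, as were St3gal6 and Wfdc2.

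**Figure D3:**
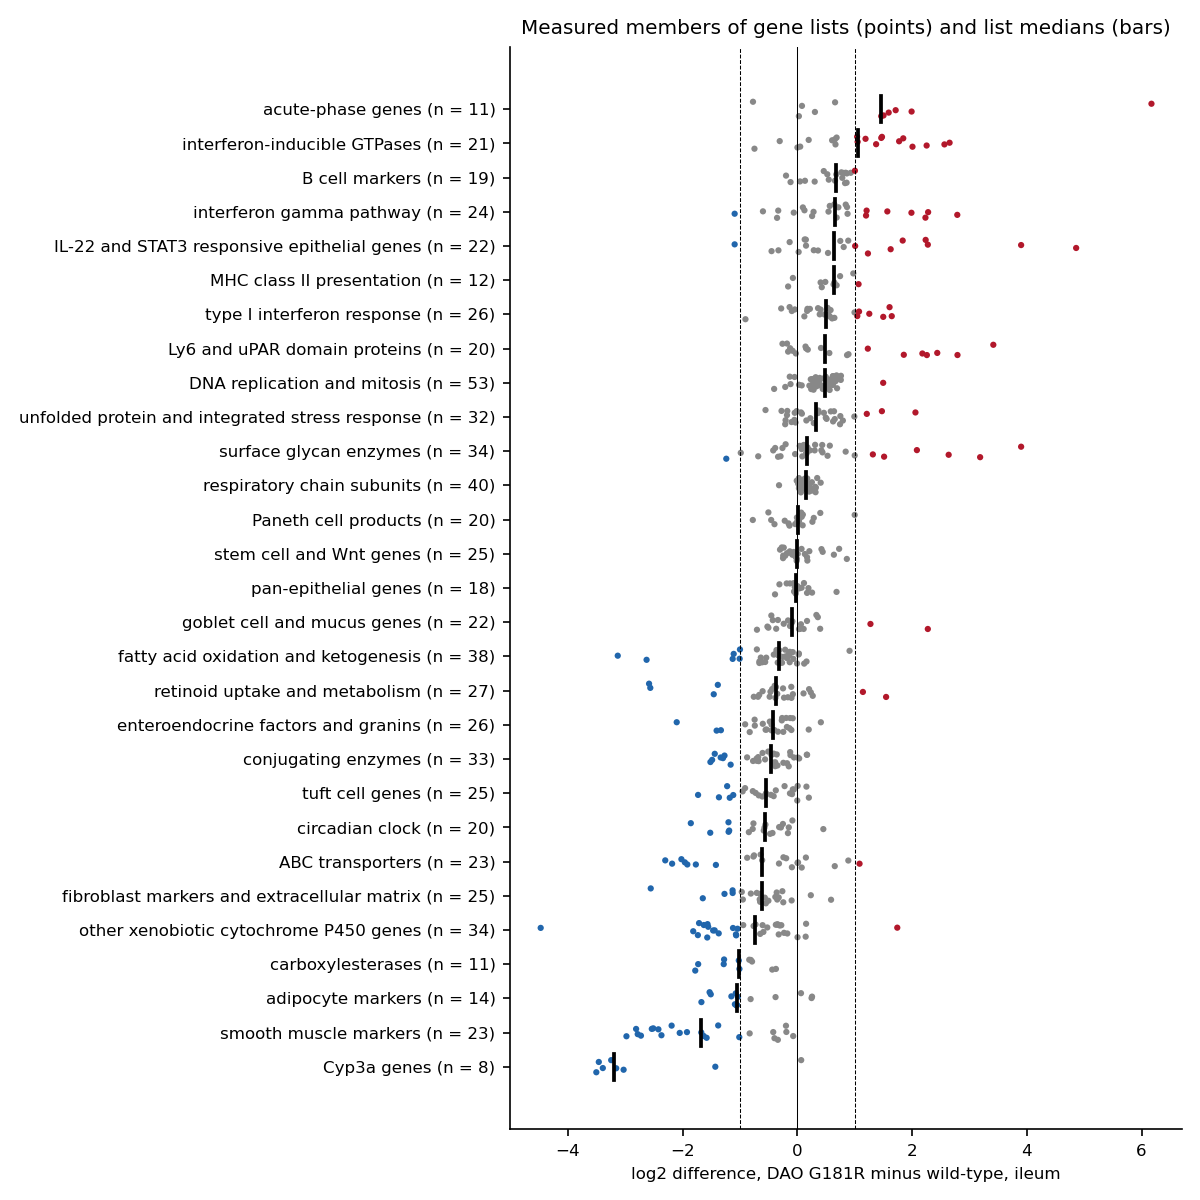
Log2 difference, G181R minus wild-type, of every measured member (points) of 29 gene lists in ileum, with the list median as a bar; red and blue mark members past 2-fold and n is the number measured. Acute-phase genes (median 1.46) and interferon-inducible GTPases (1.05) lie at the top, pan-epithelial genes near 0 (-0.03), and smooth muscle markers (-1.68) and Cyp3a genes (-3.20) at the bottom.

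Many cytochrome P450 genes for drugs and steroids fell, with the lowest median in the Cyp3a cluster, whose enzymes handle a large share of foreign compounds. Of 8 measured Cyp3a genes 7 fell and 0 rose, with a median of -3.20 in ileum and -0.81 in jejunum. Cyp3a25 read 1904 and 190.1 (-3.25), Cyp3a57 1035 and 89.0 (-3.46), Cyp3a41a 921 and 107 (-3.03) and Cyp3a59 601 and 63.8 (-3.16). Cyp3a44 (337 and 30.4, -3.39), Cyp3a16 (174 and 14.6, -3.51) and Cyp3a11 (187 and 65.6, -1.43) were dimmer in G181R. Cyp3a13, which lies apart from the cluster, read 6115 and 6067 (0.07). The probes were compared base by base because the genes are near copies. Of 28 pairs, 1 shared at least 48 identical bases: the probes of Cyp3a25 and Cyp3a57, with 49 of 52 overlapping bases identical. Their sequences follow in 5′ to 3′ order, with the bases that differ in capitals.
Cyp3a25, chr5:146789175-146789234, minus strand: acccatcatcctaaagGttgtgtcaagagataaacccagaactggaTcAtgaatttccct
Cyp3a57, chr5:146151322-146151381, plus strand: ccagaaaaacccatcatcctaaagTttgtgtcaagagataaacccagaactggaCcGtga

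Those 2 values may therefore share RNA, while the other Cyp3a values come from probes that share fewer bases. The probes were not compared with the transcripts of the other Cyp3a genes, so shared RNA among those values was not tested. With normexp the median was -2.22 and Cyp3a11 stood at -0.90. Of the 34 other xenobiotic P450 genes 15 fell and 1, Cyp4a31, rose (29.3 and 93.0, 1.74), with a median of -0.75. In the Cyp2c cluster, Cyp2c65 read 7321 and 2361 (-1.55), Cyp2c66 3216 and 984 (-1.63), Cyp2c29 476 and 163 (-1.47) and Cyp2c40 287 and 91.5 (-1.57). In the Cyp2d cluster, Cyp2d26 read 4504 and 1212 (-1.82), Cyp2d10 813 and 235 (-1.71) and Cyp2d12 308 and 107 (-1.44). Cyp2d22 (-1.57), Cyp2d11 (-1.07), Cyp2c69 (-1.12) and Cyp2e1 (-1.04) fell as well. Cyp4v3 read 2463 and 701 (-1.73), and Cyp2f2 was at least 2.16-fold lower. The bright Cyp4f14 (27763 and 20994, -0.33) and Cyp2u1 (16971 and 12652, -0.35) stayed inside 2-fold. The Cyp2c67 and Cyp2c68 probes shared 55 of 59 bases, and both fell (-1.37 and -1.07). Cyp4a31 stood at 0.78 and Cyp2e1 at -0.98 in the mean of their probes. With normexp, Cyp4a31, Cyp2d22, Cyp2d11, Cyp2c69, Cyp2e1, Cyp2c67 and Cyp2c68 were under 2-fold.

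Part of the genes for conjugation, hydrolysis and export also fell. Of 33 conjugating enzymes 7 fell and 0 rose (median -0.45): the glucuronosyltransferases Ugt2b5 (315 and 104, -1.52) and Ugt2b36 (145 and 50.5, -1.44), the glutathione transferases Gsta3 (-1.49), Gstm3 (-1.30), Gstt1 (-1.27) and Gstm1 (-1.16), and the sulfotransferase Sult1a1 (-1.34). Of 11 measured carboxylesterases, which cleave ester drugs and lipids, 6 fell and all 11 were below 0 (median -1.01). Aadac read 318 and 87.6 (-1.78), Ces1d 47.5 and 13.6 (-1.73), Ces2a 2515 and 983 (-1.28) and the bright Ces2e 39312 and 28741 (-0.37), with Ces1c (-1.28), Ces1e (-1.02) and Ces2g (-1.01) also lower. Ces1g was seen in wild-type alone, at least 5.05-fold lower. The Ces1c probe was identical to that of Ces1b at 49 of 55 bases and may read both RNAs. Of 23 ABC transporters 7 fell. The phospholipid and drug pumps Abcb4 (3723 and 715, -2.30), Abcb1a (6057 and 1413, -2.02) and Abcb1b (1208 and 294, -1.96) are neighbours on chromosome 5, and the closest pair of their probes shared 24 of 54 bases. The conjugate exporter Abcc2 read 557 and 116 (-2.18) and Abcc6 243 and 60.9 (-1.92), and Abcc5 (-1.42) and the muscle channel subunit Abcc9 (-1.77) fell too. Abcg2, another apical drug pump, read 23789 and 19044 (-0.24). The bile salt pump Abcb11 rose from 9.02 to 18.1 (1.08) and stood at 0.26 with normexp. Abcb4 stood at -0.89, Abcb1b at -1.08 and Abcc9 at -0.97 in the mean of their probes. The carboxylesterase median was -0.61 with normexp, where Ces1d, Ces1c, Ces1e, Ces2g, Ugt2b36, Sult1a1, Abcc5 and Abcc9 were under 2-fold.

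Nuclear receptors, some of which switch on these enzymes, mostly stayed inside 2-fold. Of 40 measured 0 rose and 5 fell, among them Ppara, the fatty acid sensor (1655 and 717, -1.13), its coactivator Ppargc1a (461 and 218, -1.002), Nr1d1 (26.4 and 10.97, -1.19) and Nr2e3 (34.3 and 15.4, -1.07). Hnf4a read 33000 and 30759 (-0.02) and Esrra 13291 and 12890 (0.03). The median was -0.28, and -0.14 with normexp. Ppargc1a, Nr1d1 and Nr2e3 were under 2-fold with normexp, and Ppargc1a stood at -0.96 in the mean of its probes.

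Fuel metabolism fell in part. Of 33 genes of gluconeogenesis and glycolysis 7 fell and 2 rose. The enzymes of glucose output that fell were G6pc, fructose bisphosphatase (Fbp1, 1172 and 343, -1.69) and Pck1 (628 and 161, -1.89). The sugar-sensing or sugar-carrying Slc5a4a (187 and 34.5, -2.36) and Slc5a4b (84.2 and 29.6, -1.43) and the kinases Pdk4 and Pdk2 (607 and 242, -1.25) fell too. Hexokinase 2 (Hk2) rose from 1216 to 5522 (2.26) and the glycolytic regulator Pfkfb3 from 1310 to 3678 (1.57), while Ldha (0.06) and Gapdh (0.10) were level. Of 38 genes of fatty acid oxidation and ketogenesis 6 fell and 0 rose (median -0.32), among them Angptl4, Pdk4, Ppara, Ehhadh (934 and 441) and Acot2. In fat absorption Apoc2, a cofactor of lipoprotein lipase, rose (2542 and 7192, 1.58), and the droplet coat protein Plin2 (2187 and 872, -1.25) and the lipase Pnliprp2 (1414 and 653, -1.04) fell; Fabp2 read 98097 and 87184 (-0.09). Cholesterol synthesis was level: of 36 genes only the desaturase Scd1 fell (476 and 202, -1.16), and the median was -0.01. Of 40 respiratory chain subunits 0 passed 2-fold and 38 were above 0 (median 0.16), with Cox6a1 at 0.07 and Atp5b at 0.13. Plin2 stood at -0.97 and Scd1 at -0.79 in the mean of their probes, and Slc5a4b, Acot2, Ehhadh, Pnliprp2 and Scd1 were under 2-fold with normexp.

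Retinoid metabolism had 4 of 27 genes lower and 2 higher (median -0.37). Cyp26b1, which breaks down retinoic acid, fell from 335 to 52.9 (-2.59), the retinol dehydrogenase Rdh7 from 184 to 29.5 (-2.56), and Lrat, which stores retinol as esters, from 101 to 34.8 (-1.46). Adh4 fell at low signal (21.4 and 7.74, -1.39). Rdh16 (137 and 379, 1.55) and Dhrs9 (40.5 and 84.7, 1.14) rose. The bright Aldh1a1, which makes retinoic acid, read 11518 and 8367 (-0.38), and the intestinal regulator Isx 12907 and 11359 (-0.11). Lrat (-0.71), Adh4 (-0.19) and Dhrs9 (0.61) were under 2-fold with normexp.

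The uptake machinery of the ileum stayed mostly level, with exceptions. The bile acid carrier Slc10a2 read 17763 and 13024 (-0.37), its exit partner Slc51a 81562 and 64424 (-0.26) and Fabp6 differed by -0.06. Cubilin (Cubn), the receptor for vitamin B12 bound to intrinsic factor, fell from 19294 to 2975 (-2.62, and -1.16 in jejunum). Gata4, a factor of the upper small intestine, rose from 20.9 to 44.6 (1.17) and was at 0.43 with normexp and 0.70 in the mean of its probes. Of 26 brush border hydrolases Nt5e, which makes adenosine from AMP, fell from 503 to 80.2 (-2.57), and the ceramidase Asah2 rose (121 and 231, 1.01); Anpep read 74431 and 69637 (-0.02). Of 24 amino acid carriers the proline transporter Slc6a20a (1865 and 588, -1.59) and Slc7a8 (109 and 46.8, -1.15) fell and Slc6a14 rose. The calcium-binding S100g fell (1014 and 279, -1.79), as did the manganese exporter Slc30a10 (291 and 121, -1.19), while the ferritin subunit Fth1 read 54386 and 46497 (-0.15). Slc7a8 stood at -0.77 in the mean of its probes, and Asah2, Slc7a8 and Slc30a10 were under 2-fold with normexp.

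Ion and water transport held 5 higher and 2 lower genes of 44. The sodium-proton exchanger Slc9a3 rose from 590.2 to 2382 (2.09) and the carbonic anhydrase Car4 from 1245 to 3472 (1.56). The water channels Aqp4 (307 and 1093, 1.91), Aqp8 (13.98 and 35.2, 1.41) and Aqp9 (16.5 and 34.7, 1.15) rose, and Aqp7 (201 and 66.1, -1.53) fell with Car12 (327 and 151, -1.03). Aqp4 stood at 0.96 and Aqp9 at 0.82 in the mean of their probes, and Aqp8 at 0.43, Aqp9 at 0.44 and Car12 at -0.82 with normexp. Of 23 tight junction genes 3 claudins fell: Cldn4 (276 and 79.0, -1.73), Cldn8 (241 and 80.9, -1.498) and the endothelial Cldn5 (30.9 and 11.48, -1.35). Cldn7 (-0.03) and Cldn3 (-0.31) did not pass 2-fold, and Cldn5 stood at -0.29 with normexp.

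Genes of cell division leaned higher. Of 53 genes of DNA replication and mitosis 48 were above 0 and the median was 0.47, near the 0.44 of jejunum, yet only cyclin D1 (Ccnd1) passed 2-fold (2173 and 5807, 1.496). Stem cell and Wnt genes did not pass 2-fold in any of 25 cases (median -0.01). In serine and one-carbon metabolism 4 of 24 rose: Mthfd2 (149 and 332, 1.23), Psat1 (442 and 960.2, 1.20), Shmt2 (213 and 409, 1.02) and the betaine methyltransferase Bhmt (229 and 1273, 2.55). Sardh, which oxidises sarcosine, fell (51.9 and 21.2, -1.22). In the stress response 3 of 32 rose: Chac1 (339 and 1339, 2.06), Asns (2481 and 6526, 1.47) and Atf5 (907 and 1988, 1.21). Atf4 read 24808 and 30150 (0.36) and Hspa5 24673 and 33287 (0.51). Of the 32, 21 were above 0, and Atf3 was lowest (-0.56). Psat1 stood at 0.71 in the mean of its probes, and Mthfd2 (0.99), Shmt2 (0.86) and Sardh (-0.36) were under 2-fold with normexp.

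Tuft and enteroendocrine genes leaned lower. Tuft cell genes had a median of -0.55 with 5 of 25 lower and 0 higher. The succinate receptor Sucnr1 (81.2 and 23.2, -1.73), the kinase Dclk1 (81.5 and 29.9, -1.37), Hmx2 (17.9 and 7.27, -1.22), Sh2d6 (216 and 90.5, -1.18) and Rgs13 (237 and 103, -1.12) were the 5, and all were under 2-fold with normexp, where the median was -0.20. Dclk1 stood at -0.62, Hmx2 at -0.63 and Sh2d6 at -0.97 in the mean of their probes. Enteroendocrine factors had a median of -0.43, with Pax6 (37.99 and 8.37, -2.10), Rab3c (-1.41) and Lmx1a (-1.33) lower; Chgb read 5265 and 3439 (-0.54). All 3 lower factors were under 2-fold with normexp, where the median was -0.17, and Pax6 stood at -0.53 and Rab3c at -0.79 in the mean of their probes. Among hormones, Tac1 rose against a median of -0.38, while Penk (56.5 and 16.3, -1.72) and the serotonin-making decarboxylase Ddc (4659 and 1960, -1.17) fell; secretin (Sct) read 17036 and 10777 (-0.58). Penk stood at -0.82 in the mean of its probes and -0.56 with normexp, where the hormone median was -0.25. Of 34 regional transcription factors and Hox genes Gata4 rose and Hoxc6 fell (117 and 48.8, -1.18), with a median of -0.36; with normexp that median was -0.11 and Hoxc6 stood at -0.62.

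Clock genes were below 0 in 19 of 20 cases (median -0.57, and -0.31 in jejunum). Cry2 (1057 and 276, -1.86), Tef (750.1 and 248, -1.52), Per2 (675 and 279, -1.20) and Nr1d1 were among those that fell; Timeless was at 0.45 and Nfil3 at -0.09. Per2 stood at -0.67 in the mean of its probes, and with normexp Nr1d1 stood at -0.25 and the list median at -0.32. Clock genes follow the hour of sampling, which the sources used here do not give; its part in these values was not tested. Among immediate early and heat shock genes Hspb8, Hspb1 (967 and 429.7, -1.09), Fosl1 (22.1 and 10.4, -1.01) and Fosb (94.9 and 40.8, -1.14) fell, Jund (-0.09) and Hspa8 (-0.07) were level, and Fosb stood at 0.34, with the sign turned, in the mean of its probes. Hspb8, Fosl1 and Fosb were under 2-fold with normexp.

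Smooth muscle markers had the lowest median among the marker lists of other cell types. Of 23 measured, 16 fell, 0 rose and all 23 were below 0, with a median of -1.68 in ileum and 0.06 in jejunum. The myosin light chain Myl9 read 5224 and 747 (-2.73), transgelin (Tagln) 2744 and 685 (-1.93), calponin (Cnn1) 2300 and 422 (-2.37), tropomyosin Tpm2 936 and 129 (-2.78) and the heavy chain Myh11 367 and 59.9 (-2.54). The filament proteins desmin (Des, -2.51) and Synm (-2.98) and the actin-binding Synpo2 (-2.81) fell as well. The scaffold protein Pgm5 (-2.42), Pdlim3 (-2.19), the small heat shock protein Hspb7 (-2.05), the kinase Dmpk (-1.68), filamin (Flna, -1.63), caldesmon (Cald1, -1.58), Actc1 (-1.38) and Smtn (-1.01) completed the 16. The actin Acta2 did not pass 2-fold at its brightest probe (4529 and 3756, -0.19), but its other measured probes stood at -2.42 and -2.71. For other members a second probe lay nearer to 0: the other probe of Des stood at -0.18 and that of Flna at -0.08, and 1 of the other probes stood at -0.21 for Myh11 and at -0.31 for Cald1. In the mean of all probes Flna was under 2-fold (-0.86), Des stood at -1.35, Synpo2 at -1.30 and Hspb7 at -1.12, and the list median at -1.35. Hspb7 (-0.54) and Smtn (-0.88) were under 2-fold with normexp. Of 28 markers on the array 26 were well above background in wild-type and 23 in G181R. The part of muscle RNA in the other lower genes was not tested.

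Other cells beneath the epithelium leaned the same way. Of 25 fibroblast and matrix genes 5 fell (median -0.62), with Ogn (198 and 31.9, -2.56), Fn1 (556 and 218, -1.27) and Postn (35.4 and 10.7, -1.65) lowest and Lum (-1.13) and Col6a3 (-1.13) beside them, while Dcn read 1348 and 900.0 (-0.51). Averaged over its probes, Col6a3 stood at -0.44, and the other measured Fn1 probe stood at 0.20. With normexp the fibroblast median was -0.35, and Postn, Lum and Col6a3 were under 2-fold. Of 14 adipocyte markers 9 fell (median -1.06), among them Fabp4 (1583 and 718, -1.06), adiponectin (Adipoq, 299 and 133, -1.09) and Slc2a4 (162 and 48.3, -1.67). The droplet proteins Plin4 (-1.51), Cidec (-1.04) and Cidea (-1.53), Car3 (-1.15) and Nnat (-1.08) fell too, and Plin1 was at 0.26. Car3 stood at -0.74 in the mean of its probes, and Adipoq, Slc2a4, Plin4, Cidea and Nnat were under 2-fold with normexp. Nerve and glia markers had 2 of 16 lower, Stmn2 (115 and 27.0, -2.01) and Uchl1 (221 and 79.1, -1.41), and 4 bounds downward, among them Prph (at least 3.51-fold lower). Stmn2 stood at -1.10 and Uchl1 at -0.79 in the mean of their probes, and Stmn2 at -0.99 with normexp. Red cell markers did not pass 2-fold but were below 0 in 7 of 7 cases (median -0.59). Of 17 endothelial markers only Cldn5 fell. Exocrine pancreas had Ctrl lower (99.5 and 33.1, -1.51) among 9 measured genes (median -0.03), interstitial and mesothelial cells had Muc16 lower (-1.01) among 9 (-0.77), and 0 of 6 mast cell and eosinophil genes passed 2-fold (-0.03). Ctrl (-0.66) and Muc16 (-0.34) were under 2-fold with normexp, where the interstitial and mesothelial median was -0.30. Angptl4, Pdk4, Plin2 and Cfd, which fell, are also made by fat cells; the part of fat tissue in them was not tested.

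Of the lymphoid lists, those of B cells and plasma cells gave a different picture. B cell markers had a median of 0.68 with 17 of 19 above 0, though only Ighd, the IgD heavy chain, passed 2-fold (389.9 and 741, 1.003), and it stood at 0.99 in the mean of its probes. Ighm read 1735 and 2403 (0.55) and Cd37 2144 and 2097 (0.05). With normexp the B cell median was 0.41. In jejunum it was -0.66, with Ighd at -1.79. Plasma cell genes had Nos2 and Fkbp11 (49.1 and 101, 1.11) higher, and Igha read 29135 and 34216 (0.31). Markers of T cells were still above background in mice without T cell receptor beta and delta chains: Cd3e read 205 and 217 (0.16) and 0 of 15 passed 2-fold. The T cell median was 0.16, but the summed level of 16 T cell markers was 11.2 in wild-type and 8.47 in G181R. For 22 innate lymphoid and NK markers the sums were 36.5 and 31.4, with a median of -0.03. Among innate lymphoid and NK markers Klrk1 (12.2 and 25.9, 1.16) and Il1rl1 (41.7 and 80.0, 1.02) rose and Id2 (679.7 and 314, -1.04) fell. Among myeloid markers Ly6c2 and, of the dendritic list, Ccr7 (61.3 and 151, 1.38) and Bst2 rose, Mertk fell (701 and 316, -1.07), and Csf1r read 1226 and 1411 (0.28). Klrk1 stood at 0.33 and Il1rl1 at 0.35 in the mean of their probes, and both were under 2-fold with normexp, as were Ighd, Fkbp11, Id2, Ccr7 and Mertk. The class II, interferon and chemokine genes above leaned higher in the same contrast as the B cell and dendritic markers. With 1 contrast no link between them can be seen, and the part of B cells and dendritic cells in those groups was not tested.

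Some of the genes that differed were neighbours. In the order of measured genes along the chromosomes, 23 runs held at least 3 adjoining genes past 2-fold in 1 direction, 9 higher with 30 genes and 14 lower with 52. Cyp3a gave the longest, 7 genes over 769 kb of chromosome 5. The protease inhibitors Serpina1f, Serpina1b, Serpina1d, Serpina1a, Serpina1c and Serpina1e, over 257 kb of chromosome 12, fell by 1.21 to 1.68 on the log2 scale. The Serpina1a and Serpina1c probes were identical at 50 of 51 bases and those of Serpina1c and Serpina1e at 49 of 59. The probes of each pair may read the same RNAs. The Schlafen genes Slfn8, Slfn2, Slfn4 and Slfn3, over 213 kb of chromosome 11, rose by 1.35 to 1.90, and the closest pair of their probes shared 26 of 59 bases. Slfn5 (0.31) and Slfn9 (0.01), next in line, did not pass 2-fold. Tha1, Socs3 and Dnah17 rose side by side (1.84, 2.24, 2.33), and so did Plin5, Lrg1 and Sema6b within 11.7 kb of chromosome 17 (2.06, 6.17, 1.54). Bhmt, Bhmt2 and Dmgdh, enzymes of betaine metabolism, rose together (2.55, 1.12, 1.90), as did the interferon-responsive Phf11a, Phf11b and Phf11d (1.43, 1.58, 1.15). Lower runs included the laminin gene Lama3 with Ankrd29 and Ttc39c, Ldhb with the muscle potassium channel genes Kcnj8 and Abcc9, and the imprinted Snhg14, Snrpn and Ndn of chromosome 7 (-1.54, -1.15, -1.74). Dnah17 stood at 0.71, Phf11d at 0.92, Ttc39c at -0.52 and Snhg14 at -0.85 in the mean of their probes. With normexp, Serpina1f, Slfn3, Slfn8, Plin5, Sema6b, Bhmt2, Dmgdh, the 3 Phf11 genes, Ankrd29, Snhg14, Snrpn and Ndn were under 2-fold.

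**Figure D4:**
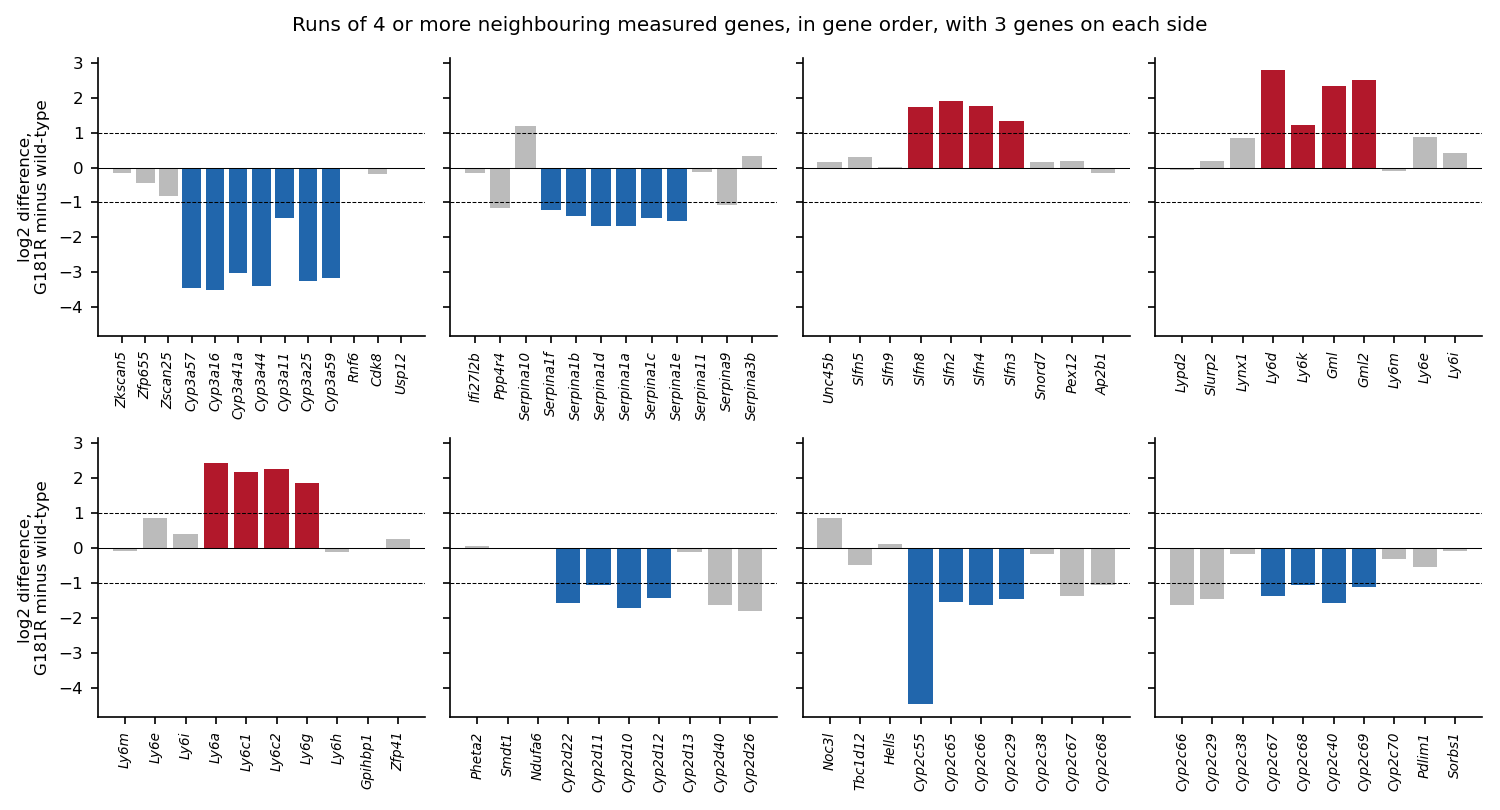
Log2 difference, G181R minus wild-type, of the 8 runs of at least 4 neighbouring genes past 2-fold in ileum (red higher, blue lower) with the 3 measured genes on each side in grey, in gene order. The 7 Cyp3a genes lie between -3.51 and -1.43, the 4 Schlafen genes between 1.35 and 1.90, and most flanking genes lie inside the dashed 2-fold lines.

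Jejunum and ileum share no array, and the same genotype difference was set side by side. The sources used here do not say whether the jejunum and ileum pools came from the same mice. The overlap between tissues therefore cannot be read as a repeat of the genotype difference in other mice. Of 13745 genes measured in both tissues, 58 rose in both, 22.4% of the 259 that rose in ileum and 57.4% of the 101 that rose in jejunum. Lower in both were 33, 6.63% of 498 and 41.8% of 79. Jejunum had fewer calls, with 0.727% of 14160 genes higher and 0.749% lower, 1.48% in all. Genes that rose in ileum had a median of 1.44 there and 0.43 in jejunum, where 198 of 259 were above 0. Of all 13745 genes, 6806 were above 0 in jejunum. Genes that fell had medians of -1.31 and -0.37, with 403 of 498 below 0 in jejunum. The genes higher in both included B3galt5, Celsr3, Chst4, Il33, Retnlb, Socs3, Prss27, B3gnt7, Saa1, Saa2, Saa3, Nos2, Duox2, Duoxa2, Chac1, Asns, Psat1 and Mthfd2. Gml and Gml2 rose in both as well. Those lower in both included Cyp2c55, G6pc, Pck1, Fbp1, Angptl4, Pdk4, Cubn, Slc5a4a, Ugt2b5, Ugt2b36, Gsta3, Adh4, Cry2 and Cfd.

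Lrg1 and Plet1 differed most between tissues on the high side. Lrg1 read 15.6 and 44.2 in jejunum (1.47) and Plet1 72.2 and 91.6 (0.31). Ly6d (-0.21 in jejunum), Nlrc5 (-0.60), Rgs4 (-0.28), Igtp, Tgtp2, Rhoj (-0.09) and Ighd followed. On the low side stood Cdc73 (-0.16 in jejunum), Optc, Hectd2, Cyp3a44 (-0.16), Synm (0.24), Synpo2 (0.25), Cd59a (0.31) and Myl9 (0.24). Mesothelin (Msln) read 118 and 59.9 in ileum (-0.90) and was at 2.31 in jejunum. With 1 array in each group none of these differences between tissues was tested. Past 2-fold in opposite directions were 6 genes, among them Aqp8, with 2624 and 634 in jejunum (-2.08) against the rise from low signal in ileum.

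**Figure D5:**
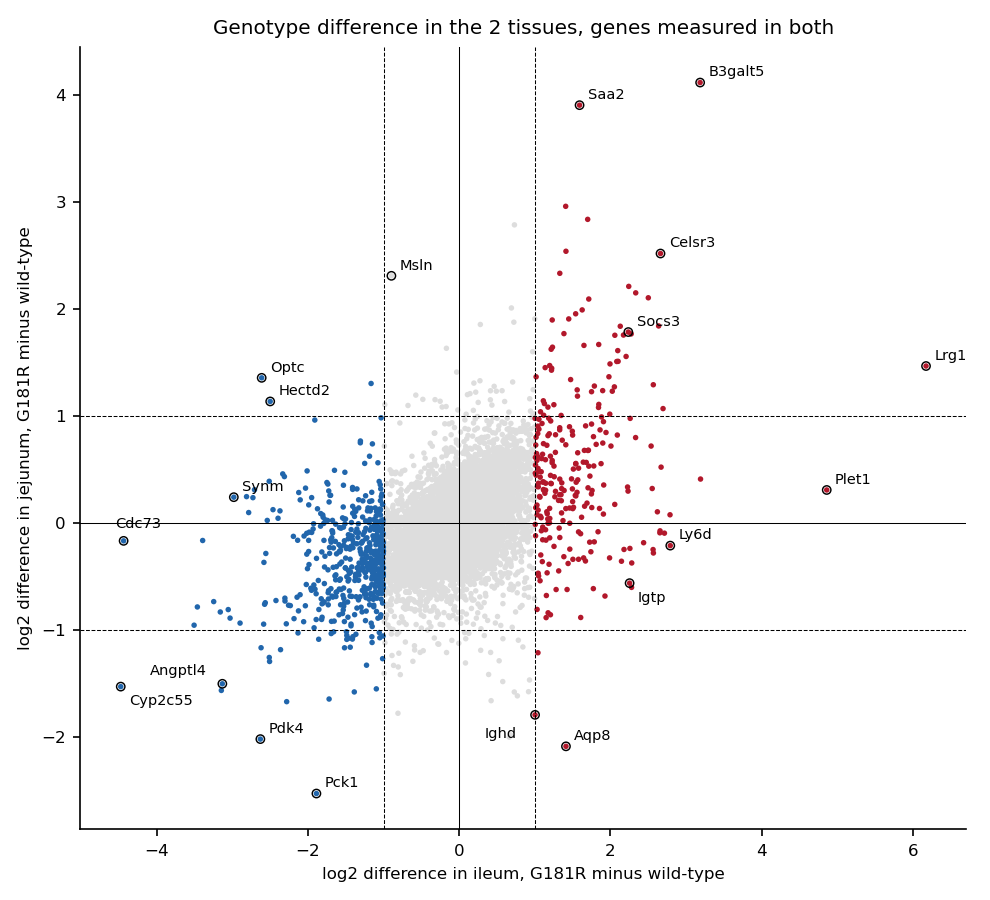
Log2 genotype difference in ileum (horizontal) against that in jejunum (vertical) for 13745 genes measured in both, G181R minus wild-type; red and blue mark genes past 2-fold in ileum and dashed lines mark 2-fold. B3galt5, Saa2 and Celsr3 are high in both tissues, Lrg1 and Plet1 stand far to the right, and Cyp2c55, Pdk4 and Pck1 are low in both.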

How the data were processed

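RNA, 100 ng a pool with an integrity number above 9, was labelled with Cy3 and put on Agilent arrays of 62976 spots, per the labels' protocols. The deposited intensity values come from Agilent Feature Extraction 11.5.1.1, per the submitters' processing notes, with background and spatial trends taken out within the array, per the file headers. Other deposited columns are flags of 0 or 1 for signal over background, saturated spots and outlier spots. The series' table of values was not used, as its first probes hold a fill value.

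Control spots were dropped, and so were outlier spots, except for probes that had no other spot, which kept them. Log2 signals were averaged over a probe's spots, and the 75th percentile of the array (184.8 in wild-type and 175.1 in G181R ileum) was subtracted. Of 56605 probes 33543 and 34080 were well above background, and 0 spots were saturated. The probe that was brightest over all arrays was used for a gene. Names came from the RefSeq table of GRCm38.p6 for 33903 probes by accession and 9458 by symbol, for 12 from the description, and 13232 kept the file's own.

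The rule named Dao, the 20 highest and 20 lowest genes, the 10 largest bounds each way, list members that were called, bright or extreme, members of neighbour runs and the 10 genes of each sign most different between tissues. Lct, the genes near Dao, Slfn5 and Slfn9 were added after their values were seen. Some genes that the rule takes in are not reported here. The 69 gene lists and the members were chosen with earlier results of these data known. Alternatives were normexp (offset 50, limma 3.58.1, R 4.3.3), quantile normalisation, centring on pan-epithelial genes, no background filter, a mean signal of at least 50, the mean of all probes, outlier spots kept, and folds of 1.5 and 4. Counting was tested on simulated data. Tables were made with Python 3.11.15 and pandas 2.3.3.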

Additional observations from a re-analysis of the deposited data

Results flagged for a closer look

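Genes past 2-fold in opposite directions in the 2 tissues were Aqp8 (1.41 in ileum and -2.08 in jejunum), Gbp6 (1.04 and -1.21), Ighd (1.003 and -1.79), Hectd2 (-2.50 and 1.14), Optc (-2.61 and 1.36) and Thsd7a (-1.17 and 1.30). They are brought up because the same genotype contrast had opposite signs in ileum and jejunum; with 1 array in each group the difference was not tested. Aqp8 was the brightest of them in jejunum, with 2624 in wild-type and 634 in G181R, and read 13.98 and 35.2 in ileum. Optc read 104 and 16.2 in ileum and 21.1 and 55.2 in jejunum, and Hectd2 62.7 and 10.5 in ileum and 49.4 and 111 in jejunum. In ileum, Aqp8, Gbp6, Ighd, Hectd2 and Thsd7a were under 2-fold with normexp, and Thsd7a stood at -0.49 in the mean of its probes.

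Of the gene lists with at least 5 measured members in each tissue, 8 had medians of opposite sign in ileum and jejunum with both at least 0.126 from 0, the median SD between probes of a gene, and all 8 were of immune genes or cells. The interferon-inducible GTPases stood at 1.05 and -0.35, the type I interferon response at 0.50 and -0.46, MHC class I presentation at 0.13 and -0.14, and MHC class II presentation at 0.64 and -0.14. Interleukins and TNF family cytokines stood at 0.38 and -0.20, B cell markers at 0.68 and -0.66, T cell markers at 0.16 and -0.28, and dendritic cell markers at 0.54 and -0.18. None of these differences between tissues was tested.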

How the results depend on the processing

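No paired analysis was possible because each group holds 1 array, and no array could be left out. The 292 higher and 539 lower genes became 145 and 186 with normexp background correction, 701 and 1176 with no background filter, 977 and 1424 at 1.5-fold, and 56 and 68 at 4-fold; with a mean signal of at least 50 the lower genes were 339. The genes higher and lower in both tissues (58 and 33) became 33 and 13 with normexp and 107 and 109 with no background filter. Quantile normalisation, centring on pan-epithelial genes and keeping outlier spots moved none of these 4 counts past 1.5 times. Keeping outlier spots could change only probes with other spots left, so it cannot show how far flagged spots matter. The median of all genes moved by under 0.1 in every setting. Of 255 named genes 100 were under 2-fold with normexp and 38 in the mean of all probes, where Fosb also turned to 0.34; 7 were under it with quantile normalisation and 9 with the epithelial centring.

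With normexp the list medians were 0.80 for acute-phase genes, 0.42 for IL-22 and STAT3 responsive genes, 0.65 for interferon-inducible GTPases, 0.45 for MHC class II, -2.22 for Cyp3a, -0.61 for carboxylesterases, -0.33 for ABC transporters, -0.20 for tuft cell, -0.32 for clock, 0.41 for B cell, 0.25 for dendritic, -1.40 for smooth muscle, -0.35 for fibroblast, -0.30 for interstitial and mesothelial, -0.73 for adipocyte and -0.42 for red cell genes. With no background filter they were 0.34 for acute-phase, 0.45 for IL-22 and STAT3, -0.84 for carboxylesterase, 0.29 for dendritic and -1.99 for smooth muscle genes. In the mean of all probes they were 0.38 for IL-22 and STAT3, 1.19 for GTPase, 0.55 for B cell and -1.35 for smooth muscle genes. With a mean signal of at least 50 they were -0.94 for other P450, -0.84 for carboxylesterase, -0.47 for ABC transporter and -0.63 for interstitial and mesothelial genes. Every one of these medians kept its sign. Normexp draws dim signals together by its construction, so dim genes are those whose fold is least certain; other causes were not tested.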
